A study of Mus musculus with 59 samples.

Results

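The genes described here are 40 markers and regulators of blood vessels, lymph vessels and red blood cells, chosen by symbol from the 21706 genes of the tables. They fall into 4 lists: 16 genes of blood vessel endothelium, 4 lymphatic genes, 15 angiogenic factors, receptors and hypoxia factors, and 5 genes of red cells. All 40 were in the tables and passed the filter on low counts in whole and digested uterus, and 39 passed it in luminal epithelium, where Angpt4, an angiopoietin, lay below the filter.

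Endothelial cells line the vessels and are held together by VE-cadherin and claudin 5, while VEGF ligands act on them through the receptors KDR and FLT1, and angiopoietins act through TEK. FLT1 also exists in a soluble form that binds VEGF and PGF. Low oxygen stabilises the factors HIF1A and EPAS1, which bind a short DNA core and switch on genes such as Vegfa and Adm. In the mouse uterus, oestrogen on the day of mating raises vessel permeability and fluid, and progesterone action before implantation comes with growth and remodelling of stromal vessels. Red cells of adult mice carry alpha and beta globin RNA left over from their precursors, so globin RNA in a tissue follows the blood it holds.

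RNA was sequenced from 59 uterine libraries of 29 females, aged about 2 to 6 months when mated with wild-type males (Esr1f/f or C57BL/6). In every female 1 copy of Esr1, the gene of oestrogen receptor alpha, was floxed and the other was null. Controls were Esr1f/-, and knockouts (epiERα-/-) also carried a Cre driven from Wnt7a, which is active in epithelium, so stroma, muscle and vessels were not targeted. Uteri were taken on the day of the plug (D0.5) or at D3.5. Luminal epithelium (LE) scraped out after dispase digestion gave 9 libraries of D0.5 controls, 7 of D0.5 knockouts, 4 of D3.5 controls and 6 of D3.5 knockouts. An undigested piece of whole uterus (U) gave 6, 4, 5 and 5 libraries of these groups. A piece of digested uterus (DU), kept before scraping, gave 4, 3, 3 and 3. Libraries of 1 number come from 1 mouse.

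Library totals lay between 11.3 M and 108 M estimated counts (M, 1e6). Esr1 averaged 192 CPM (counts scaled to 1e6 per library) in D0.5 control LE against 47.3 CPM in knockout LE, and 127 against 59.7 CPM at D3.5. In the U library labelled knockout 33, Esr1 stood at 212 CPM, above every D3.5 control. The epithelial markers were higher in LE than in U for 11 of 11 genes, and summed smooth muscle markers stayed between 36.3 and 188 TPM (length-scaled transcripts per 1e6) in LE against at least 3625 TPM in U. Stromal RNA was present in LE, with summed fibroblast markers of 224 to 2482 TPM. Among D3.5 knockout LE libraries, numbers 35, 36 and 37 stood apart in blood content, with summed red cell genes of 403, 615 and 102 TPM against 1436 to 1959 TPM in numbers 31, 32 and 34. Results other than red cell genes that rest on these 3 are also given without them. For the red cell genes, the values that set them apart, leaving them out would be no test.

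The first question was how vessel genes changed in the uterine wall between mating and D3.5. In control whole uterus, 14 of 16 endothelial genes rose from D0.5 to D3.5, with a median log2 fold change of 0.91 over the list against 0.02 over all genes tested. Over the same contrast 23 of 40 members rose and 2 fell, where 34.2% of all tested genes were called, 16.2% upward and 18% downward. Digested uterus gave a similar picture, with 14 endothelial genes higher, a list median of 1.04, and 22 members higher and 2 lower where 34.4% of genes were called, 15.9% upward and 18.5% downward. The 2 endothelial genes not called in either tissue were Flt1 and Cldn5. Because these are pieces of tissue, more vessel cells and more RNA per vessel cell cannot be told apart.

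Cdh5 encodes VE-cadherin, the adhesion protein of endothelial junctions. In U, the 6 control libraries at D0.5 ran from 99.1 to 123 CPM with a median of 116 CPM, and the 5 at D3.5 held 221, 235, 268, 279.7 and 285 CPM. The days did not overlap, and the rise was 2.27-fold (log2 1.18 ± 0.12 SE, adjusted p = 1.45e-07 by the quasi-likelihood test of edgeR with Benjamini-Hochberg adjustment, which gives every adjusted p below unless another is named). In DU, control levels were 87.8, 99.8, 133 and 134 CPM at D0.5 and 299, 301 and 301 CPM at D3.5 (log2 1.40 ± 0.14, adjusted p = 8.72e-06).

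The angiopoietin receptor gene Tek rose in control U by 1.33 ± 0.18 on the log2 scale, and Tie1, a related endothelial receptor, by 1.36 ± 0.16. Emcn, an endomucin of veins and capillaries, rose by 1.28 ± 0.14 and Esam, a junction protein, by 1.17 ± 0.12. Kdr, the main signalling receptor for VEGF-A, rose by 1.02 ± 0.21. The transcription factors Erg and Sox18 rose by 0.97 and 0.79, and Egfl7, a secreted vessel protein, by 0.80. Pecam1 and Robo4, broad endothelial surface proteins, had the smallest called rises, 0.68 and 0.61. Libraries of the 2 days were fully apart for 10 of the 16 genes in U and for 14 of 16 in DU, where 20.9% and 41.7% of all tested genes were. Vwf, the clotting factor stored in endothelium, was higher by 1.13 ± 0.42 in U with an adjusted p of 0.0453, which ran from 0.0239 to 0.161 when single libraries were left out and was 0.0514 with median-of-ratios scaling.

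**Figure D1:**
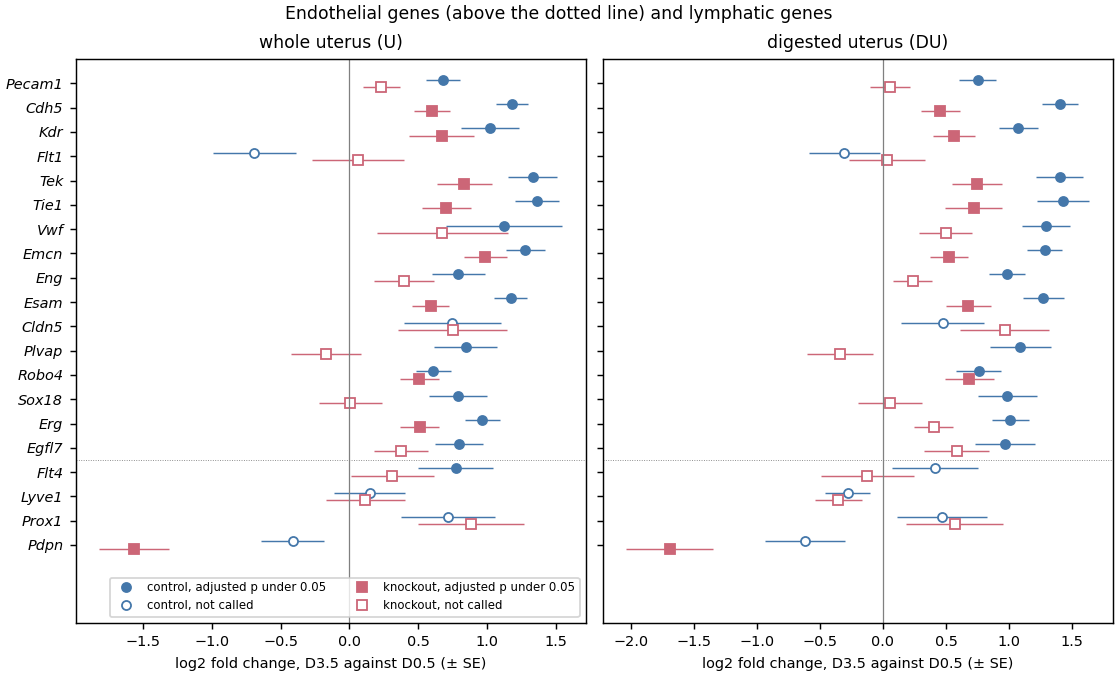
Change of the 16 endothelial and 4 lymphatic genes from D0.5 to D3.5 in whole uterus (left) and digested uterus (right), as log2 fold change with its standard error, for controls (circles) and knockouts (squares); filled symbols passed an adjusted p of 0.05. In controls 14 endothelial genes are filled on each side, against 8 (U) and 7 (DU) in knockouts.

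Knockout uteri were tested the same way. In knockout U, 8 of 16 endothelial genes rose and none fell, with a median of 0.55, and 11 members rose and 3 fell where 25.5% of genes were called, 10.9% upward and 14.6% downward. In knockout DU, 7 endothelial genes rose with a median of 0.51, and 8 members rose and 6 fell where 30.2% were called, 12.9% upward and 17.3% downward. Cdh5 in knockout U was 122, 139, 151 and 174 CPM at D0.5 and 180.1, 223, 226, 240.0 and 241 CPM at D3.5. Its days did not overlap, and it rose by 0.60 ± 0.13 (adjusted p = 0.00165). Emcn (0.99), Tek (0.84), Tie1 (0.70), Kdr (0.67), Esam (0.59), Robo4 (0.51) and Erg (0.51) were the other 7 called in U. With limma on log2(TPM + 1) Kdr (adjusted p = 0.109) and Erg (0.0508) were not. Plvap, the diaphragm protein of fenestrated vessels, had a log2 fold change of -0.17 in knockout U against a rise of 0.85 ± 0.23 in control U. The count in DU rested in part on the library labelled knockout 32, without which 1 endothelial gene, Tek, was called. Over all members the DU count of 14 was lowest, at 6, without D0.5 knockout 25. The part of the lower power with fewer libraries in these counts was not tested.

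Whether the rise differed between genotypes was tested as an interaction of genotype and day. In U 1 member was called, with a negative value, where 1.43% of genes were called and 0.487% were negative. In DU it was 2 members, both negative, where 1.88% of genes were called and 0.932% were negative. Aplnr, the apelin receptor of venous and sprouting endothelium, was called in both. Its control U libraries went from 44.9 to 79.1 CPM (median 53.9) at D0.5 to 129, 145, 149.8, 158 and 197 CPM at D3.5. Its knockout U libraries were 59.8, 81.4, 82.4 and 102 CPM at D0.5 and 64.9, 89.5, 99.4, 103 and 111 CPM at D3.5. Controls were thus fully apart between days and knockouts overlapped. The rise was 1.45 ± 0.17 in controls, the knockout value was 0.20 ± 0.19 and not called, and the difference between them was -1.24 ± 0.25 (adjusted p = 0.0148). In DU the same difference was -1.64 ± 0.30 (adjusted p = 0.0163, and 0.0539 without control 16).

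Among the 16 endothelial genes, the difference between genotypes in DU was called for Cdh5 alone (-0.95 ± 0.21, adjusted p = 0.0383, lost when any of 10 of the 13 libraries was left out, with 0.0971 without control 16, and 0.066 with limma on log2(TPM + 1)). Of the 16, 12 had an unadjusted p under 0.05, as did 15.7% of all tested genes, and the list median was -0.68. In U none of the 16 was called by edgeR, 7 had an unadjusted p under 0.05, as did 10.4% of all tested genes, and the median was -0.45. DESeq2 called 7 of all 40 members there and 505 genes in all. Outside the members, further endothelial genes called in U were Sox7 (1.82 ± 0.37, adjusted p = 0.0146) and Bmx (-1.67 ± 0.39, adjusted p = 0.0374). In DU they were Sele (-5.53, adjusted p = 0.0136), S1pr1 (-0.91, adjusted p = 0.0281) and Selp (-3.26, adjusted p = 0.0297). Of all tested genes 1.43% were called in U and 1.88% in DU. In LE the same difference for Sox7 was 1.26 ± 0.49 (adjusted p = 0.0802), and which cells account for its U value was not tested. Plvap stood at -1.43 ± 0.36 (adjusted p = 0.06) in DU and -1.02 ± 0.35 (adjusted p = 0.193) in U. The U and DU pieces come from the same mice and are not independent of each other.

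At D3.5 itself, few members differed by call between knockouts and controls. In U no member passed the test, where 0.0185% of all genes did, while 7 members and 4.2% of all genes had an unadjusted p under 0.05, and DESeq2 called 5 members and 75 genes in all. In DU 2 members were lower in knockouts, where 0.574% of genes were called, 0.117% higher and 0.457% lower. Vwf in DU was 170.0, 193 and 212 CPM in controls and 69.4, 85.2 and 103 CPM in knockouts, with no overlap. The difference was -1.16 ± 0.21 (adjusted p = 0.0218, up to 0.134 with single libraries left out). Aplnr in DU was 159, 167 and 194 CPM in controls and 63.8, 86.1 and 95.4 CPM in knockouts (-1.08 ± 0.22, adjusted p = 0.0483, lost when any of 11 of the 13 libraries was left out, with 0.251 without control 16). Groups were fully apart for 10 of 16 endothelial genes in DU and for 1 of 16 in U, where 18.9% and 1.32% of all tested genes were.

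**Figure D2:**
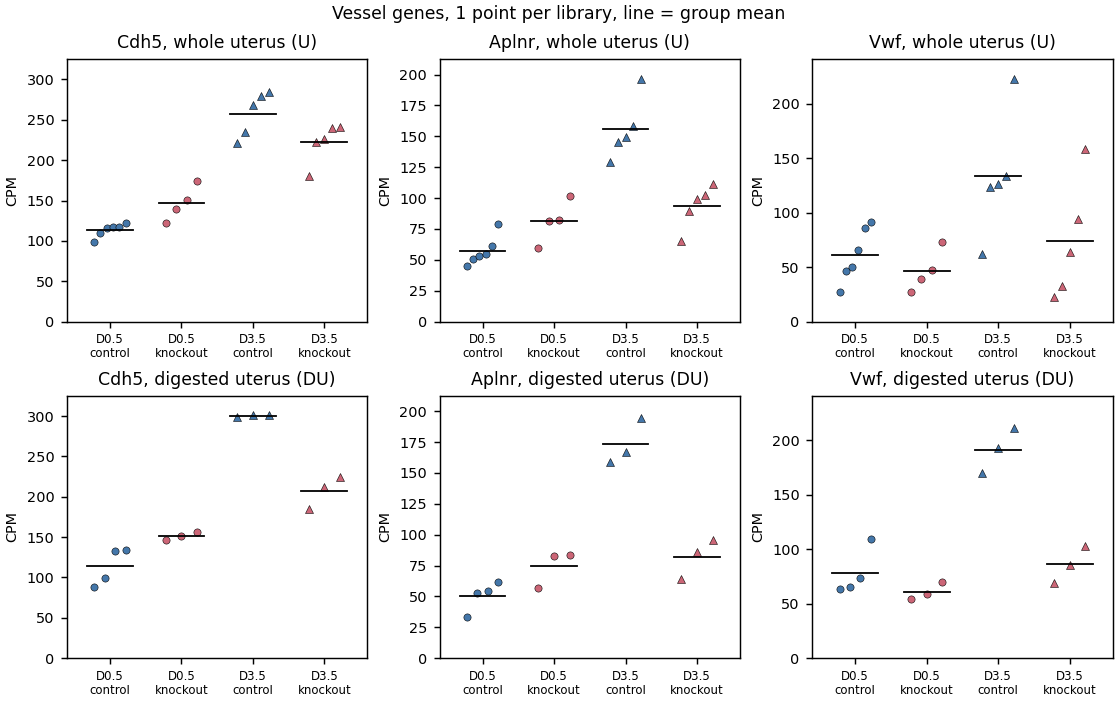
CPM of Cdh5, Aplnr and Vwf in every library of whole uterus (top) and digested uterus (bottom), with circles for D0.5, triangles for D3.5, blue for controls, red for knockouts and lines for group means. D3.5 control Aplnr libraries lie at 129 CPM or above in U and at 159 CPM or above in DU, above every knockout library of that day.

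At D0.5, 1 member differed between genotypes in U, a lower one, where 4.98% of genes were called and 2.96% were lower. In DU 2 were higher and 1 lower, where 8.06% were called, 3.89% higher and 4.17% lower. None of them was an endothelial member. Outside the members, further endothelial genes called in U included Sox7 (-2.01), Bmx (1.57) and Rasip1 (0.67). In D0.5 LE, Sox7 (-3.09 ± 0.33, adjusted p = 1.91e-07) and Rasip1 (1.14 ± 0.31, adjusted p = 0.00812) were called in the same direction, and Bmx was not called. Which cells account for the U values was not tested. The endothelial medians were 0.25 in U and 0.32 in DU, with 5 and 4 genes at an unadjusted p under 0.05, where 16.2% and 24.4% of all genes were. DESeq2 called 2 and 8 of all members, and 1273 and 2126 genes in all. Other cell types moved in the same comparisons. Summed neutrophil markers ran from 239 to 2064 TPM in D0.5 control U and from 4646 to 11536 TPM in knockout U. Between days, summed epithelial markers in control U went from 3014 to 5794 TPM at D0.5 to 625 to 1042 TPM at D3.5, with 10 of 11 markers lower, while 6 of 11 fibroblast markers were higher and 1 lower. The part of these shifts in the vessel gene results was not tested.

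Scraped epithelium contained endothelial RNA at low level. In control LE, 11 of 16 endothelial genes rose by D3.5 and 1, Flt1, fell, with a list median of 1.87, and over all members 20 rose and 4 fell where 44% of genes were called, 21.2% upward and 22.8% downward. Libraries of the 2 days were fully apart for 1 of the 16, Flt1, where 23.9% of all tested genes were. Every endothelial gene that rose thus overlapped between days. Cdh5 in control LE ran from 1.94 to 14.4 CPM (median 4.2) at D0.5 and stood at 10.3, 19.2, 21 and 41.4 CPM at D3.5. The days overlapped at their edges, and the rise was 2.02 ± 0.61 (adjusted p = 0.00865, and 0.0606 without control 16). Without control 11, 4 endothelial genes rose in place of 11, and without control 16, 7 did. Fewer libraries also give the test less power, and its part in these lower counts was not tested.

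Knockout LE was less uniform. Over all 6 libraries at D3.5, 1 endothelial gene, Vwf, was called, and 3 members rose and 4 fell where 41.6% of genes were called, 21.4% upward and 20.2% downward. Vwf was 103 CPM in knockout 32 against 23.7 CPM in the next library, and without that library its adjusted p was 0.0871. Without knockouts 35, 36 and 37, which were set apart by their low blood RNA, 10 of the 16 endothelial genes rose, where 34.1% of genes were called. These libraries were picked from the same data by red cell genes, so this count is no test of an endothelial rise in knockouts. The summed endothelial level at D3.5 was 57.6 to 139.9 TPM in control LE, 229 and 407 TPM in knockouts 31 and 32, and 51.2 to 62.5 TPM in the other 4 knockouts. Fibroblast markers in LE summed to between 564 and 2263 TPM at D3.5, and their part in these values was not tested.

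Flt1 was the exception in LE. It encodes VEGF receptor 1, and in control LE at D0.5 its mean TPM was 145% of that in U, against a median of 6.41% for the endothelial list. Control LE at D0.5 ran from 49.3 to 305 CPM with a median of 122 CPM. Knockout LE on that day ran from 7.13 to 24.8 CPM with a median of 11.9 CPM. No knockout library reached the lowest control, and the difference was -3.26 ± 0.44 (adjusted p = 5.08e-06), in a comparison where 9 members, 6 higher and 3 lower, and 23.6% of all genes (10.9% higher, 12.6% lower) were called. By D3.5, control LE held 2.69, 4.33, 5.87 and 7.02 CPM, a fall of 4.83 ± 0.62 on the log2 scale (adjusted p = 4.97e-07). D3.5 knockouts ran from 2.87 to 19.0 CPM (median 4.86), so genotypes overlapped on that day. The knockout effect differed between days by 3.75 ± 0.70 (adjusted p = 0.000468).

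The RefSeq promoter window of Flt1 (GRCm38.p6, chr5:147725962-147726261, minus strand, 250 bases before to 50 after the start) is shown beside those of the ligand Pgf (chr12:85177264-85177563, minus strand) and of adrenomedullin, Adm (chr7:110627407-110627706, plus strand), since these 3 genes had the largest day changes in LE among the angiogenic members and Flt1. Capitals mark the hypoxia core ACGTG or GCGTG on either strand, at position -184 in Flt1 and -124 in Pgf relative to the start, and at 2 places in Adm. Pgf has another window in the table, which holds neither core.
Flt1: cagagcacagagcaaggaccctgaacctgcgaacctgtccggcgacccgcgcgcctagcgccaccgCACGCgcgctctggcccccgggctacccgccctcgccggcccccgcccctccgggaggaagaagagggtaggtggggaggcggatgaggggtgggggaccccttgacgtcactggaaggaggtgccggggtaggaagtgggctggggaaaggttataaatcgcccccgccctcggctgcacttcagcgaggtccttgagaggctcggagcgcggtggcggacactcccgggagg
Pgf: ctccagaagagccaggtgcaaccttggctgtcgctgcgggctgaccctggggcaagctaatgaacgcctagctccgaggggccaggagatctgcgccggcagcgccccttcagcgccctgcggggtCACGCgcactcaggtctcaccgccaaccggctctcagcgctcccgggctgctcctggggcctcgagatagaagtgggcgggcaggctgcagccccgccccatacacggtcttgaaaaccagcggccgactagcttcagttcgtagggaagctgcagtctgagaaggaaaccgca
Adm: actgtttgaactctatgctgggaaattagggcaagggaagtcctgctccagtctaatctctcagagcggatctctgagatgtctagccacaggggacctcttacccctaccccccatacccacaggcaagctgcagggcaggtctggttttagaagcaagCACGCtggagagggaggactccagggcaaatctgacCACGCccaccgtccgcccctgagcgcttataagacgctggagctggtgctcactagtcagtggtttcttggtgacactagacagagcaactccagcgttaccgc
Either core was present in 43.8% of 32851 promoter windows, in 8 of 11 angiogenic members with a window, in 5 of 10 endothelial members and in 1 of the 2 Vegfa windows. The 29 members with a promoter have 36 windows, and a member was counted if any of its windows matched. Its counts are thus not on the same scale as the share of windows. A match is a description of the letters only. Promoter windows were found for 29 of the 40 members, and the full palindrome of the oestrogen response element, searched on both strands with any 3 bases between its arms and found in 23 of all windows, was in none of theirs.

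The lymphatic genes had few calls. In control U 1 of 4, Flt4, the receptor for VEGF-C and VEGF-D, was called between days (0.77 ± 0.27, adjusted p = 0.0333, up to 0.0905 with single libraries left out). Lyve1, a hyaluronan receptor of lymphatic endothelium, was not called in any day or genotype comparison, nor was Prox1, the transcription factor of lymphatic identity. In U Lyve1 averaged between 34.5 and 44.1 CPM in the 4 groups and Prox1 between 5.14 and 10.2 CPM. Pdpn, podoplanin, is also made by stromal and epithelial cells. In LE it ran from 8.22 to 86.0 CPM (median 22.5) in D0.5 controls and from 81.0 to 138 CPM (median 123) in D0.5 knockouts. Only the top of the control range reached the knockouts, and the difference was 1.80 ± 0.45 (adjusted p = 0.00377). Pdpn fell by D3.5 in knockout U (-1.57 ± 0.25, adjusted p = 9.79e-05) and knockout DU (-1.69 ± 0.35, adjusted p = 0.0025), and in controls its values were -0.41 and -0.62. The difference between genotypes was not called in U (adjusted p = 0.11) or DU (adjusted p = 0.28).

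Among the ligands, Vegfa, the main VEGF, was most abundant in LE at D0.5. Control LE at D0.5 ran from 186 to 634 CPM with a median of 438 CPM, and D3.5 controls held 72.5, 111, 120.3 and 162 CPM, all below the lowest D0.5 library. The fall was 1.89 ± 0.31 on the log2 scale (adjusted p = 1.41e-05). In knockout LE it went from 148 to 426 CPM (median 249) at D0.5 to 60.6 to 123 CPM (median 96.2) at D3.5, a log2 fold change of -1.50 ± 0.26. The knockout value at D0.5 differed from control by -0.69 ± 0.24 (adjusted p = 0.0332, from 0.00856 to 0.0895 with single libraries left out, 0.0522 with median-of-ratios scaling and 0.128 with limma on log2(TPM + 1)). Vegfa also fell between days in control U (-0.997 ± 0.23, adjusted p = 0.00222) and control DU (-0.91 ± 0.27, adjusted p = 0.0199). With limma on log2(TPM + 1) these 2 were not called (adjusted p = 0.0714 and 0.0579). In knockouts the values were -0.51 in U and -0.37 in DU, neither of them called, and the differences between genotypes were not called either.

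Vegfb, a VEGF that binds FLT1, was higher at D3.5 than at D0.5 in control LE, where Vegfa fell, but not in knockout LE. D0.5 controls ran from 7.91 to 17.8 CPM (median 10.4), and D0.5 knockouts from 23.4 to 36.3 CPM (median 29.9). The ranges did not meet, and Vegfb was higher in knockouts by 1.38 ± 0.15 (adjusted p = 3.69e-07). At D3.5 the controls held 18.1, 20.5, 22.3 and 26.7 CPM and the knockouts 18.3 to 26.8 CPM (median 22.7), which is nearly the same range. The interaction of genotype and day was -1.31 ± 0.25 (adjusted p = 0.000551). In DU, Vegfb (0.57 ± 0.16, adjusted p = 0.0412) and Vegfd, a lymphatic ligand (0.71 ± 0.19, adjusted p = 0.0386), were higher in D0.5 knockouts, each up to 0.138 and 0.128 in adjusted p with single libraries left out. With limma on log2(TPM + 1) neither was called (adjusted p = 0.0637 and 0.0737). Vegfc was not called in any day or genotype comparison, and in LE it averaged 2.41 to 5.01 CPM over the 4 groups.

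Pgf, placental growth factor, binds FLT1 and was low in LE at D0.5. The 9 control libraries ran from 0 to 1.47 CPM with a median of 0.612 CPM, and the 4 at D3.5 held 34.5, 37.5, 59.2 and 60.1 CPM. The rise was 6.40 ± 0.72 on the log2 scale (adjusted p = 5.45e-08). Relative to U, Pgf in control LE went from 22.8% to 719% of the mean TPM. In knockout LE it went from 0.347 to 7.87 CPM (median 1.35) at D0.5 to 11.4 to 58.5 CPM (median 23.2) at D3.5, again with no overlap (3.76 ± 0.68, adjusted p = 6.93e-05). The difference between genotypes was -2.64 (adjusted p = 0.0567). At D0.5 Pgf was higher in knockout LE by 1.85 ± 0.64 (adjusted p = 0.0346), and by 1.01 (adjusted p = 0.239) without knockout 27. With limma on log2(TPM + 1) the adjusted p was 0.104. In U it rose in controls (1.56 ± 0.41, adjusted p = 0.00563) and knockouts (1.48 ± 0.47, adjusted p = 0.0235, up to 0.0799 with single libraries left out).

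Angiopoietin 1, Angpt1, stabilises vessels through TEK and is made by mural and stromal cells. In control U it averaged 4.35 ± 1.76 CPM (SD, n = 6) at D0.5 and 9.62 ± 2.85 CPM (SD, n = 5) at D3.5, a rise of 1.15 ± 0.28 (SE, adjusted p = 0.00316). It rose in knockout U (1.21 ± 0.32) and in control DU (1.51 ± 0.20, adjusted p = 7.78e-05) as well. In LE all libraries were at or below 4.88 CPM. There, knockouts were higher than controls on both days, by 1.77 ± 0.60 at D0.5 (adjusted p = 0.0327, up to 0.0657 with single libraries left out) and by 2.79 ± 0.84 at D3.5 (adjusted p = 0.0257). The D3.5 value was 1.83 (adjusted p = 0.275) without knockouts 35, 36 and 37, which held 4.88, 4.82 and 3.75 CPM. Angpt2, which can oppose ANGPT1, was called once, lower at D3.5 in knockout DU (-0.61 ± 0.20, adjusted p = 0.0364, up to 0.118 with single libraries left out and 0.187 with limma on log2(TPM + 1)). Angpt4 averaged between 0.897 and 2.40 CPM in U and was not called between days or genotypes.

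Of the neuropilins, which bind VEGF and semaphorins, Nrp1 was higher in D0.5 knockout LE. Controls ran from 0.824 to 7.01 CPM (median 2.46) and knockouts from 3.16 to 18.1 CPM (median 7.23), overlapping in part (1.68 ± 0.40, adjusted p = 0.00253). In knockout LE it fell by D3.5 (-1.43 ± 0.45, adjusted p = 0.0121), a call lost without knockouts 35, 36 and 37 (-1.32, adjusted p = 0.0892) and with limma on log2(TPM + 1) (adjusted p = 0.0671). It rose in control DU (0.74 ± 0.20, adjusted p = 0.0111). Nrp2, the neuropilin of lymphatics and veins, fell between days in knockout U (-0.77, and -0.48 with an adjusted p of 0.0947 without knockout 27, and 0.229 with limma on log2(TPM + 1)) and knockout DU (-0.96 ± 0.20, adjusted p = 0.00322). Apln, the ligand of APLNR, was not called in any comparison, and its group means in U lay between 4.91 and 8.94 CPM.

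Adm encodes adrenomedullin, a vasodilator peptide that is induced by low oxygen. Control LE ran from 52.0 to 282 CPM (median 128) at D0.5, and 4.31, 4.37, 4.79 and 11.6 CPM remained at D3.5. Knockout LE ran from 72.0 to 270.2 CPM (median 141) and then from 0.944 to 6.18 CPM (median 3.47). In neither genotype did the days meet, with log2 fold changes of -4.52 ± 0.51 (adjusted p = 5.95e-08) and -5.44 ± 0.45 (adjusted p = 6.53e-10). Adm fell in U too, from 32.5 to 122 CPM (median 63.7) to 8.34, 8.39, 9.63, 11.2 and 11.8 CPM in controls (-2.80 ± 0.32, adjusted p = 1.01e-06), and in knockouts from 33.5, 39.3, 72.8 and 104 CPM to 8.34, 12.5, 13.0, 14.1 and 15.7 CPM (-2.29 ± 0.33). Both DU genotypes fell by a similar size (-2.21 and -2.24). Adm did not differ by call between genotypes on either day in any tissue. Its LE share of the U level went from 202% to 56% of mean TPM in controls.

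The oxygen factors diverged in LE. Epas1, which encodes HIF-2 alpha, ran from 254 to 665 CPM (median 340.1) in D0.5 control LE and stood at 34.4, 38.5, 42.5 and 52.0 CPM at D3.5, a fall of 3.18 ± 0.26 on the log2 scale (adjusted p = 1.53e-10). In knockout LE it ran from 95.7 to 226 CPM (median 162) at D0.5 and from 69.9 to 113 CPM (median 81.8) at D3.5. The knockouts lay below all controls at D0.5 (-1.24 ± 0.18, adjusted p = 1.53e-05) and above all controls at D3.5 (1.03 ± 0.24, adjusted p = 0.00388). The difference between the days was 2.27 ± 0.30 (adjusted p = 8.65e-06). At D3.5, where 2 members were called in LE, both higher, and 13.5% of all genes were (7.79% higher, 5.7% lower), Epas1 was the one also called without knockouts 35, 36 and 37, where 7.18% were.

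Epas1 was also lower in knockouts at D0.5 in the uterine pieces. In U, controls ran from 165 to 251 CPM (median 228) and knockouts held 139, 146, 148 and 158 CPM, below every control (-0.58 ± 0.12, adjusted p = 0.00714). In DU, controls held 192, 254, 264 and 267 CPM and knockouts 154, 162 and 172 CPM (-0.59 ± 0.13, adjusted p = 0.0155, up to 0.0598 with single libraries left out). With limma on log2(TPM + 1) the U value was -0.54 (adjusted p = 0.163).

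Hif1a, which encodes HIF-1 alpha, rose in control LE, from 109 to 426 CPM (median 140.4) at D0.5 to 446, 475, 550.4 and 656 CPM at D3.5 (1.62 ± 0.26, adjusted p = 1.07e-05). Knockout LE ran from 166 to 343 CPM (median 283) and then from 212 to 373 CPM (median 350.1), which overlapped (0.23, adjusted p = 0.488). The difference between genotypes was -1.39 ± 0.37 (adjusted p = 0.00899). At D0.5 knockouts were higher by 0.67 ± 0.23 (adjusted p = 0.0326, from 6.04e-05 to 0.0704 with single libraries left out), and the control range then included library 1 at 426 CPM, with the next at 189 CPM.

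**Figure D3:**
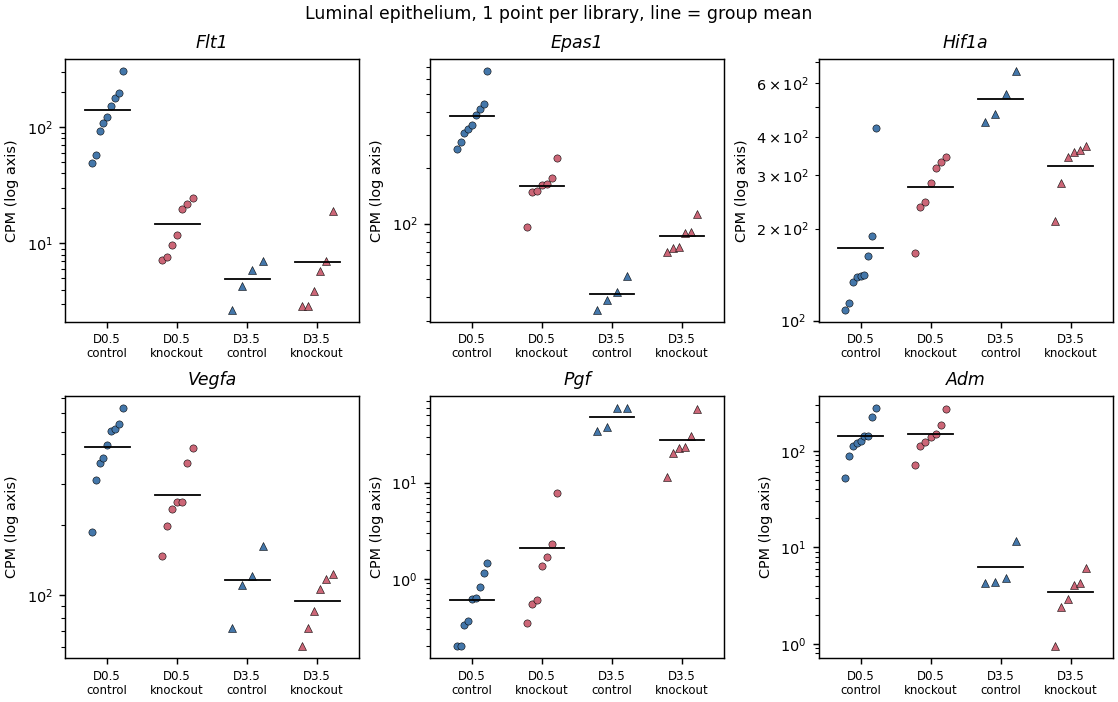
CPM on a log axis of angiogenic factors and hypoxia factors in every LE library, grouped by day and genotype; 2 Pgf libraries at 0 are drawn at the lower edge of the axis. Pgf is highest at D3.5 while Adm, Vegfa and Epas1 are highest in D0.5 controls or knockouts, and D0.5 knockouts lie below all D0.5 controls for Flt1 and Epas1.

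Targets of the hypoxia factors were read from a list of 15 genes of the hypoxia response. In control LE 11 of the 15 fell between days and 3 rose, with a median of -1.43, where 22.8% of all genes fell and 21.2% rose. In knockout LE 11 fell and 1 rose, with a median of -2.01, where 20.2% fell and 21.4% rose. In control U 10 fell and 1 rose, with a median of -1.35, where 18% fell and 16.2% rose. Egln3, the prolyl hydroxylase that marks HIF for degradation, went from 419 to 1846 CPM (median 1274) in D0.5 control LE to between 4.36 and 11.8 CPM at D3.5 (-7.33 ± 0.47, adjusted p = 2.53e-12). Bnip3, a mitophagy protein, fell by 3.46 ± 0.35 on the log2 scale and Pfkfb3, a regulator of glycolysis, rose by 2.43 ± 0.27. The D0.5 knockouts and D0.5 controls of LE differed in 4 of the 15, where 23.6% of all genes were called, among them Vhl, the HIF ubiquitin ligase (0.78 ± 0.13, adjusted p = 5.68e-05).

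Partners of these pathways outside the members were counted as well. Among 10 Notch and Eph genes of vessels, 4 rose and 3 fell in control U between days, where 16.2% of all genes rose and 18% fell, led by the Notch ligand Jag2 (1.36 ± 0.13, adjusted p = 1.32e-07) and the Notch targets Heyl (2.00) and Hey2 (1.70). In control LE, 3 of these 10 rose and 1 fell (21.2% and 22.8% of all genes), Hey2 by 4.68 ± 0.38 upward and Hey1 with a log2 fold change of -5.00 ± 0.62. In D0.5 knockout LE, 3 of 19 further VEGF, semaphorin and adrenomedullin genes were higher and 5 lower, where 10.9% of all genes were higher and 12.6% lower. Ramp1, a partner of the calcitonin receptor-like receptor, ran from 0.587 to 2.53 CPM in controls and from 17.6 to 55.1 CPM in knockouts (4.38 ± 0.41, adjusted p = 2.55e-08), and Ramp2, whose complex with that receptor binds adrenomedullin, was higher by 3.11 ± 0.45 (adjusted p = 1.28e-05). Neutrophil markers in the same libraries summed to 3.84 to 1337 TPM in controls and 2979 to 9849 TPM in knockouts, and their part in these differences was not tested. Of 26 further endothelial genes, 17 rose and 1 fell in control U between days, with a median of 0.77, where 16.2% of all genes rose and 18% fell. In control DU 17 rose and 1 fell, where 15.9% rose and 18.5% fell. The one that fell in U was Sox7, an endothelial transcription factor (-2.16 ± 0.26). In control LE its value was -0.59 ± 0.36 (adjusted p = 0.195), and which cells account for the fall in U was not tested. Mural cell markers were mixed in control U, where 2 of 8 rose and 1 fell, with Rgs5, a pericyte gene, up by 1.32 ± 0.17.

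Red cell genes rose in the controls of all 3 tissues. The 5 members are the beta globins Hbb-bs and Hbb-bt, the alpha globins Hba-a1 and Hba-a2, and Alas2, which makes the first enzyme of haem synthesis in red cell precursors. In controls all 5 rose between days in U (median 2.30), in DU (median 1.86) and in LE (median 4.19). Of all genes, 16.2%, 15.9% and 21.2% rose in these comparisons. In U, Hbb-bs ran from 30.5 to 87.5 CPM (median 43.9) at D0.5 and held 140.4, 189.6, 195, 321 and 384 CPM at D3.5. Every D3.5 control lay above every D0.5 control (2.30 ± 0.37, adjusted p = 6.42e-05). Alas2 in U ran from 1.12 to 2.56 CPM (median 1.97) and then held 5.81, 6.69, 7.11, 11.9 and 13.3 CPM, also apart (2.27 ± 0.36, adjusted p = 4.85e-05). Control days in U were fully apart for 20.9% of all tested genes.

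In knockouts the red cell genes were not called by edgeR in U or DU. In knockout U, Hbb-bs was 26.3, 46.7, 65.3 and 89.3 CPM at D0.5 and 33.2, 52.0, 77.9, 92.2 and 129 CPM at D3.5, which overlapped (0.43 ± 0.41, adjusted p = 0.502). The list median in knockout U was 0.45, and none of the 5 was called or had an unadjusted p under 0.05, as 35.2% of all genes had. At D3.5 the knockout values of all 5 were lower than control with a median of -1.67, and Hbb-bs differed by -1.68 ± 0.39, with an unadjusted p of 0.000348 and an adjusted p of 0.166. DESeq2 called it (-1.69, adjusted p = 0.00645). The 2 groups were fully apart for 4 of the 5 genes, where 1.32% of all tested genes were fully apart and 0.0185% were called. The difference between genotypes in the day change was -1.87 ± 0.54 for Hbb-bs by edgeR (adjusted p = 0.106) and was called by DESeq2 (-1.87, adjusted p = 0.0295). All 5 genes had an unadjusted p under 0.05, as did 10.4% of all tested genes. Without the library labelled knockout 33 the D3.5 median was -1.57, with none called.

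In LE the globin range was wider. D0.5 control LE held 3.31 to 44.4 CPM of Hbb-bs (median 18.7), and D3.5 control LE held 192, 209.9, 221 and 1129 CPM. D3.5 knockout LE held 199.8, 138 and 170 CPM in numbers 31, 32 and 34, and 34.0, 66.3 and 9.62 CPM in numbers 35, 36 and 37. D0.5 knockouts ran from 6.03 to 91.3 CPM (median 26.8). Controls rose by 4.28 ± 0.68 (adjusted p = 1.06e-05), or by 3.20 without control 11, and knockouts had a value of 1.39 (adjusted p = 0.0869). The difference between genotypes, with 7 members (2 higher, 5 lower) and 16.5% of all genes called (9.52% higher, 6.99% lower), was -2.88 ± 0.94 for Hbb-bs (adjusted p = 0.0355), and Hba-a1 and Hba-a2 were called with it. It was -1.80 (adjusted p = 0.207) without control 11, the library at 1129 CPM, and with limma on log2(TPM + 1) its adjusted p was 0.0562. At D3.5 itself the knockout LE value of Hbb-bs was -2.09 ± 0.74 against control (adjusted p = 0.0614), and -1.01 without control 11, with no red cell gene called by edgeR and 4 at an unadjusted p under 0.05, where 25.8% of all genes were. DESeq2 called Hbb-bs there (-2.05, adjusted p = 0.0281).

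**Figure D4:**
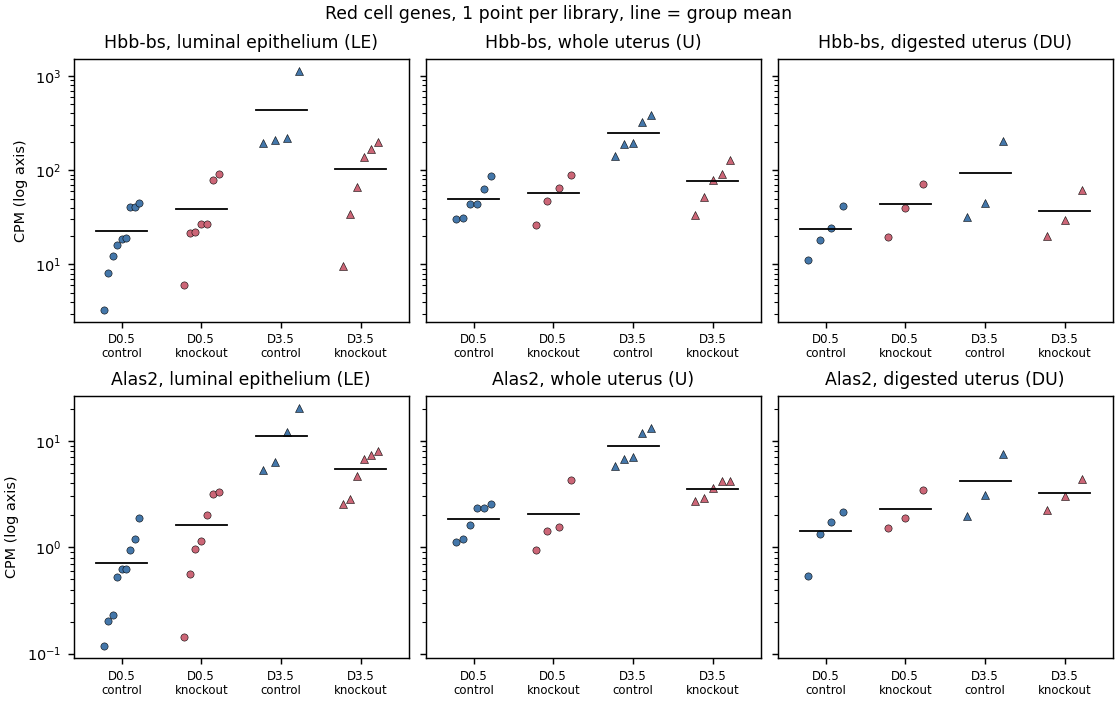
CPM on a log axis of the red cell genes in every library, by tissue, day and genotype. In whole uterus all 5 D3.5 controls of Hbb-bs (140.4 to 384 CPM) lie above all D0.5 libraries, while D3.5 knockouts (33.2 to 129 CPM) overlap with them.

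In DU the control rise rested on 1 mouse. Hbb-bs was 11.2, 18.2, 24.3 and 42.0 CPM at D0.5 and 31.5, 45.1 and 202 CPM at D3.5, so the days overlapped (1.97 ± 0.64, adjusted p = 0.0289). Without control 16, the library at 202 CPM, the value was 0.69 (adjusted p = 0.411), and none of the 5 genes was called. In knockout DU the values were 19.4, 39.9 and 70.6 CPM at D0.5 and 20.05, 29.7 and 61.0 CPM at D3.5, with no red cell gene called.

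The 4 globins kept similar proportions while their total moved. Over the 59 libraries their summed TPM ran from 27.1 to 6478 (median 330.1), Hbb-bs made up 34.0% to 50.2% of it, Hba-a2 27.4% to 46.0%, Hba-a1 13.3% to 25.1% and Hbb-bt 2.32% to 8.78%. The ratio of alpha to beta globin TPM lay between 0.738 and 1.56, with a median of 1.20. Single copies are uncertain, since 91.0% of the 31-base words of the Hba-a2 transcript (GENCODE M21) also occur in Hba-a1, and 66.9% of those of Hbb-bs occur in Hbb-bt, while no alpha and beta transcript shared a word. Of 10 further red cell genes tested in U, 1 rose and 1 fell in controls between days, where 16.2% of all genes rose and 18% fell. Fech, which inserts iron into haem, rose (0.43 ± 0.12) and Bpgm, which makes 2,3-bisphosphoglycerate, fell (-0.98 ± 0.22). Summed platelet markers, also carried by blood, went from 45.5 to 129 TPM in D0.5 control U to 31.6 to 45.8 TPM at D3.5.

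The promoters of these globins are shown because the genes moved together. They are the RefSeq windows (GRCm38.p6) of Hbb-bs (chr7:103827879-103828178, minus strand), Hbb-bt (chr7:103813874-103814173, minus strand) and Hba-a1 (chr11:32283422-32283721, plus strand), and capitals mark AGATAA or TGATAA, forms of the site bound by GATA factors, on either strand. Other forms with GATA were not searched.
Hbb-bs: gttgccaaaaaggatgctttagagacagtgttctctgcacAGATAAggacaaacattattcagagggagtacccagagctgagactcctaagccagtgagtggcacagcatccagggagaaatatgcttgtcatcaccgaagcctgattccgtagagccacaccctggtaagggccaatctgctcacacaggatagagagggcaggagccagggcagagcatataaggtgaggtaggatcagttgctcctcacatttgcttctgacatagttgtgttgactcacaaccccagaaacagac
Hbb-bt: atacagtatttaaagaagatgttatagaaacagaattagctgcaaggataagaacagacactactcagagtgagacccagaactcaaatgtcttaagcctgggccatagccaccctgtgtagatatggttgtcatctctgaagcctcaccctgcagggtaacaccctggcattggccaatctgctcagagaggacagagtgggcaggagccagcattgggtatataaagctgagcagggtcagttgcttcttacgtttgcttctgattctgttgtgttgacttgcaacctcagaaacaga
Hba-a1: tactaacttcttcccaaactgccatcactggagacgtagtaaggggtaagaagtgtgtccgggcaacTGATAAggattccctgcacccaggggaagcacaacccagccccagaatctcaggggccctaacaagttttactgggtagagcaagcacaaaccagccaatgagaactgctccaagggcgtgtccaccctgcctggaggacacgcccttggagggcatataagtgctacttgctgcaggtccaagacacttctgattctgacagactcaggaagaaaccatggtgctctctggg
A match was at -210 in Hbb-bs and -183 in Hba-a1, and neither searched form was in the Hbb-bt window, which holds GATA in other contexts. Either searched form was in 4 of 5 red cell members, 4 of 10 endothelial members and 18.6% of all windows. CACCC was in 5 of 5 red cell members and 57.5% of all windows, and CCAAT in 4 of 5 and 37.4%. The Hba-a1 and Hba-a2 windows were identical over 297 of 297 aligned bases, 3 bases out of register.

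Luminal epithelium was compared with whole uterus over the 4 groups of each. In LE 3 members were higher and 28 lower, where 65.8% of all genes were called (31% higher, 34.7% lower), and all 16 endothelial genes were lower, with a median of -3.05 against -0.03 over all genes. Robo4 (-3.87), Eng, an endothelial TGF-beta co-receptor (-3.79), Emcn (-3.64) and Cdh5 (-3.54 ± 0.29) were lowest, and Esam (-1.42 ± 0.21) and Flt1 (-1.59 ± 0.22) least so. Aplnr (-4.78 ± 0.33) and Nrp1 (-3.82 ± 0.23) stood below the endothelial median. The 3 higher in LE were Hif1a (0.93 ± 0.14, adjusted p = 1.03e-07), Pgf (0.89 ± 0.32, adjusted p = 0.0125) and Vegfa (0.78 ± 0.14, adjusted p = 3.44e-06). Pgf was not called with limma on log2(TPM + 0.1) (0.49, adjusted p = 0.111), and this mean over the groups joins D0.5 controls at 22.8% of U with D3.5 controls at 719%. None of the red cell genes was called (median 0.22, unadjusted p under 0.05 for none), and their TPM in LE was 44.1% of that in U at D0.5 and 142% at D3.5 in controls, as list medians, and 86.3% at D3.5 without LE control 11. In knockouts these list medians were 70.7% at D0.5 and 161.5% at D3.5. Each tissue had its own RNA isolation batch, and the effects of the 2 cannot be told apart.

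**Figure D5:**
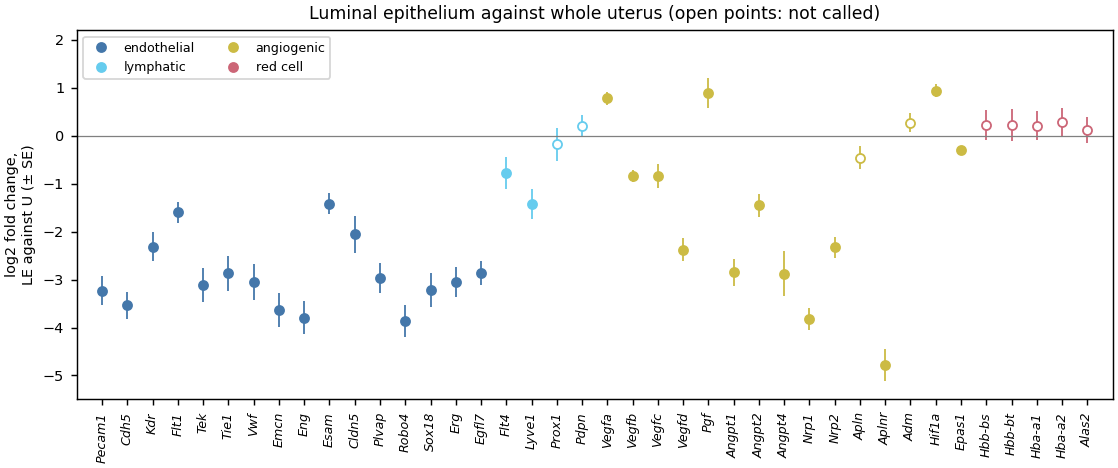
Log2 fold change of LE against U with its standard error for each member, coloured by list; open points were not called. All 16 endothelial genes lie below 0, the lowest member is Aplnr at -4.78, and the 5 red cell genes lie near 0.

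Digested uterus was compared with whole uterus (DU against U). These tissues also had separate RNA isolation batches, so effects of digestion and batch cannot be told apart. Without regard to the mouse, no gene was called (0% of all tested genes), while 12 members and 24.2% of all genes had an unadjusted p under 0.05, and DESeq2 called 3 members and 54 genes in all. With the mouse as a block over 13 animals, 8 members were higher in DU and 12 lower, where 42.6% of all genes were called. All 5 red cell genes were lower, with a median of -1.26. Hbb-bs in DU was 0.225 to 0.791 of the CPM in U of the same mouse, with a median of 0.415, and was lower in 13 of 13 mice (-1.35 ± 0.15, adjusted p = 0.000638). Alas2 was lower in 10 of 13 (-0.43 ± 0.14). Endothelial genes went both ways under the block, with Sox18 (-0.53), Cldn5 (-0.47), Plvap (-0.38) and Eng (-0.35) among the 5 lower and Vwf (0.67), Kdr (0.36) and Flt1 (0.33) the 3 higher. Prox1 (0.73), Nrp1 (0.48) and Nrp2 (0.43) were higher and Vegfb (-0.44) and Pdpn (-0.21) lower. Cdh5 had a value of 0.01 ± 0.06 and was not called.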

How the data were processed

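Estimated counts per gene and TPM per gene were deposited by the authors; the submitters' processing notes name kallisto 0.46.1 and the build GRCm39. Estimated counts were rounded to whole numbers. In each tissue, genes with low counts were removed (filterByExpr, minimum count 10, minimum total 15), and the 4 groups of genotype and day were fitted together with edgeR 4.0.16 (R 4.3.3, quasi-likelihood test, TMM scaling, Benjamini-Hochberg threshold 0.05 over all genes tested). CPM uses TMM library sizes. TPM served for shares between tissues and for summed marker lists. Alternatives were median-of-ratios scaling, DESeq2 1.42.0, no filter, limma 3.58.1 on log2(TPM + 1) and log2(TPM + 0.1), single libraries left out, LE without knockouts 35, 36 and 37, and the mouse as a block. The LE share of U without control 11 was chosen after seeing the data. Libraries of 1 number come from the same mouse, per the labels, so tissues are paired. Deviations from group means correlated between U and LE of a mouse with a median of 0.241 (17 mice) and between U and DU with 0.305 (13 mice). Standard errors are the log2 fold change divided by the root of the F statistic. Fits were tested on simulated data. The members and gene lists were chosen with earlier results of these data known. Named genes outside the members are the called genes of each list with the smallest p, at most 3 per list and comparison. Members' promoters came from the RefSeq table of GRCm38.p6.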

Additional observations from a re-analysis of the deposited data

Results flagged for a closer look

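Among 108 tests of single groups for 12 genes, 8 had a library far from the others, where chance gives about 1 in 20. In LE, control 7 had 665 CPM of Epas1 at D0.5, with the next library at 442 CPM. Control 1 had 426 CPM of Hif1a at D0.5 (next 189 CPM), and knockout 27 had 7.87 CPM of Pgf at D0.5 (next 2.31 CPM). Control 11 at D3.5 had 11.6 CPM of Adm (next 4.79 CPM) and 1129 CPM of Hbb-bs (next 221 CPM). Knockout 32 at D3.5 had 103 CPM of Vwf (next 23.7 CPM) and 19.0 CPM of Flt1 (next 7.06 CPM). In U, knockout 27 had 88.3 CPM of Flt1 at D0.5 (next 39.6 CPM).

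The interaction test in edgeR called a knockout effect that differed between D0.5 and D3.5 for 10 gene and tissue pairs. The LE calls stand beside 16.5% of all tested genes with such a call. For U that share was 1.43%, and for DU it was 1.88%. In LE the log2 difference was 3.75 for Flt1, 2.27 for Epas1, -1.31 for Vegfb, -1.39 for Hif1a, -2.88 for Hbb-bs, -2.78 for Hba-a1 and -2.77 for Hba-a2. In U it was -1.24 for Aplnr. In DU it was -0.95 for Cdh5 and -1.64 for Aplnr. With limma on log2(TPM + 1) the LE calls of Hbb-bs (adjusted p = 0.0562), Hba-a1 (0.0625) and Hba-a2 (0.0806) were lost. The DU call of Cdh5 was lost as well (adjusted p = 0.066).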

How the results depend on the processing

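Counts are of members called. The number of all genes called also changed with the setting, so a changed count is not by itself a result about the members. With DESeq2 they were 5 for LE genotype at D3.5, 11 for the LE day change in knockouts, 2 and 5 for U genotype at D0.5 and D3.5, 7 for the U difference between days, 8 for DU genotype at D0.5, 7 for the DU difference and 3 for DU against U. With limma on log2(TPM + 1) and log2(TPM + 0.1) they were 1 and 1 for LE genotype at D3.5, 13 and 12 for the LE knockout day change, 4 and 4 for the LE difference, 0 and 0 for U genotype at D0.5, 1 and 1 for DU genotype at D0.5, and 1 and 1 for the DU difference. Without LE knockouts 35, 36 and 37 they were 1, 22 and 4 for LE genotype at D3.5, knockout day change and difference. These totals include the red cell genes, for which leaving these libraries out is no test. Hbb-bs, Hba-a1 and Hba-a2 were among those no longer called for the difference. With the mouse as a replicate block, DU against U had 20, where the share of all genes called went from 0% to 42.6%. LE against U went from 31 to 33, where 65.8% of all genes were called with the block. The causes of these changes were not tested. With single libraries left out, the ranges in LE were 5 to 10 (genotype D0.5), 1 to 5 (genotype D3.5), 17 to 26 (control day), 7 to 16 (knockout day) and 4 to 9 (difference). In U they were 1 to 2, 0 to 0, 23 to 27, 11 to 15 and 1 to 4, and in DU 0 to 4, 0 to 3, 18 to 26, 6 to 16 and 0 to 4, in the same order. They were 30 to 32 for LE against U and 0 to 0 for DU against U. Signs turned for Hbb-bs in the DU knockout day change (0.10 and 0.11 on the TPM scales, -0.80 to 0.31 with single libraries left out), in LE against U (-0.43 and -0.44 on the TPM scales, -0.28 with the block, -0.0621 to 0.363 with single libraries left out) and in U genotype at D0.5 (-0.11 to 0.43), for Pdpn in LE genotype at D3.5 (-0.25 without knockouts 35, 36 and 37) and for Cdh5 in DU against U (-0.0156 to 0.0346). None of these was called. On the TPM scales the median of all genes shifted to between 0.361 and 0.469 in the LE comparisons that use D3.5 knockouts, so changes there are relative to that shift.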
